A study of Mus musculus with 12 samples.

Results

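The 9 inhibitory receptors Pdcd1, Ctla4, Lag3, Havcr2, Tigit, Cd160, Btla, Entpd1 and Cd244 and the transcription factor gene Tox were followed across 12 RNA sequencing libraries of mouse spleen cells. These 10 genes were taken as a named list of checkpoint and exhaustion genes, not by their values, and are 10 of the 23420 genes listed in each file. The libraries form 4 groups of 3. Stimulated knockout and stimulated wild-type cells were exposed for 24 h to anti-CD3, bound to the plate, and to anti-CD28, each at 1 µg/ml. The fresh knockout and fresh wild-type cells were untreated. Knockout mice lacked Otub1, a deubiquitinase gene, through CD4-Cre, a recombinase active in developing T cells. All mice were of the C57BL/6 background, were 6 to 8 weeks old and carried the OT-I transgene, a T cell receptor for an ovalbumin peptide. The fresh cells were taken as uncultured, so antibody stimulation and time in culture form 1 factor. The design text names naive CD8 T cells of the spleen, a cell type tag names dendritic cells, and the extraction text names fresh spleen cells without saying how they were purified.

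Inhibitory receptors are surface proteins that T cells carry to limit their own activation. PD-1, the product of Pdcd1, recruits the phosphatase SHP-2, and CTLA-4 competes with the costimulatory receptor CD28 for shared ligands. Several of these genes are switched on within hours of T cell receptor signalling, and are kept on, with Tox, in T cells that meet antigen for weeks during chronic infection or in tumours. TOX is a nuclear protein that sets up the exhausted state in such cells. The stimulated cells described here had 24 h of culture.

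Depth was 15064488 to 25920035 gene counts a library, and 14482 to 15384 genes had a count. Otub1 was at 14.8 ± 1.26 CPM in stimulated knockout cells and 94.0 ± 7.48 CPM in stimulated wild-type cells, and at 27.6 ± 1.91 CPM in fresh knockout cells and 62.8 ± 15.4 CPM in fresh wild-type cells (CPM, the count per 1e6 gene counts with TMM scaling, mean ± SD, n = 3 libraries in each group, as throughout). Otub1 thus stood at 15.8% of wild type in stimulated cells (edgeR adjusted p = 1.35e-07) and at 43.9% in fresh cells (edgeR adjusted p = 0.000559). Summed over 8 CD8 T cell markers, libraries held 1823 to 1993 CPM in stimulated knockout, 2197 to 2300.0 CPM in stimulated wild-type, 5553 to 5817 CPM in fresh knockout and 5443 to 5647 CPM in fresh wild-type cells. The 15 dendritic cell markers summed to 224 to 239, 206 to 244, 1573 to 2246 and 1941 to 2262 CPM in the same order of groups, so fresh libraries held transcripts of both T cells and antigen-presenting cells. Y-linked reads numbered 5958 to 9563 in 1 library each of 3 groups, namely stimulated knockout replicate 3, fresh knockout replicate 2 and fresh wild-type replicate 3. They numbered 2 to 10 in the other 9 libraries. The labels do not say whether replicates were separate animals. Libraries with and without Y-linked reads cannot come from the same animals, so in those 3 groups the spread between libraries is not only technical. Among the other libraries the spread may be technical, and all p-values rest on the spread between libraries.

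All 10 members passed the filter on low counts. With stimulation, 5 of the 10 rose and 4 fell in wild-type cells, and 5 rose and 5 fell in knockout cells (edgeR quasi-likelihood test, Benjamini-Hochberg adjusted p under 0.05 over 12759 genes). The background was high: 83.9% of all tested genes were called in knockout cells (41.7% higher and 42.2% lower) and 82.3% in wild-type cells (40.8% higher and 41.4% lower). Stimulated and fresh libraries did not overlap for 9 members in each genotype, as for 84.6% of all genes in knockout and 84.1% in wild-type cells. The counts of members called were therefore near those of any genes, and the sizes and directions carry the description. The same 5 genes rose in both genotypes, namely Pdcd1, Lag3, Ctla4, Tigit and Cd160.

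**Figure D1:**
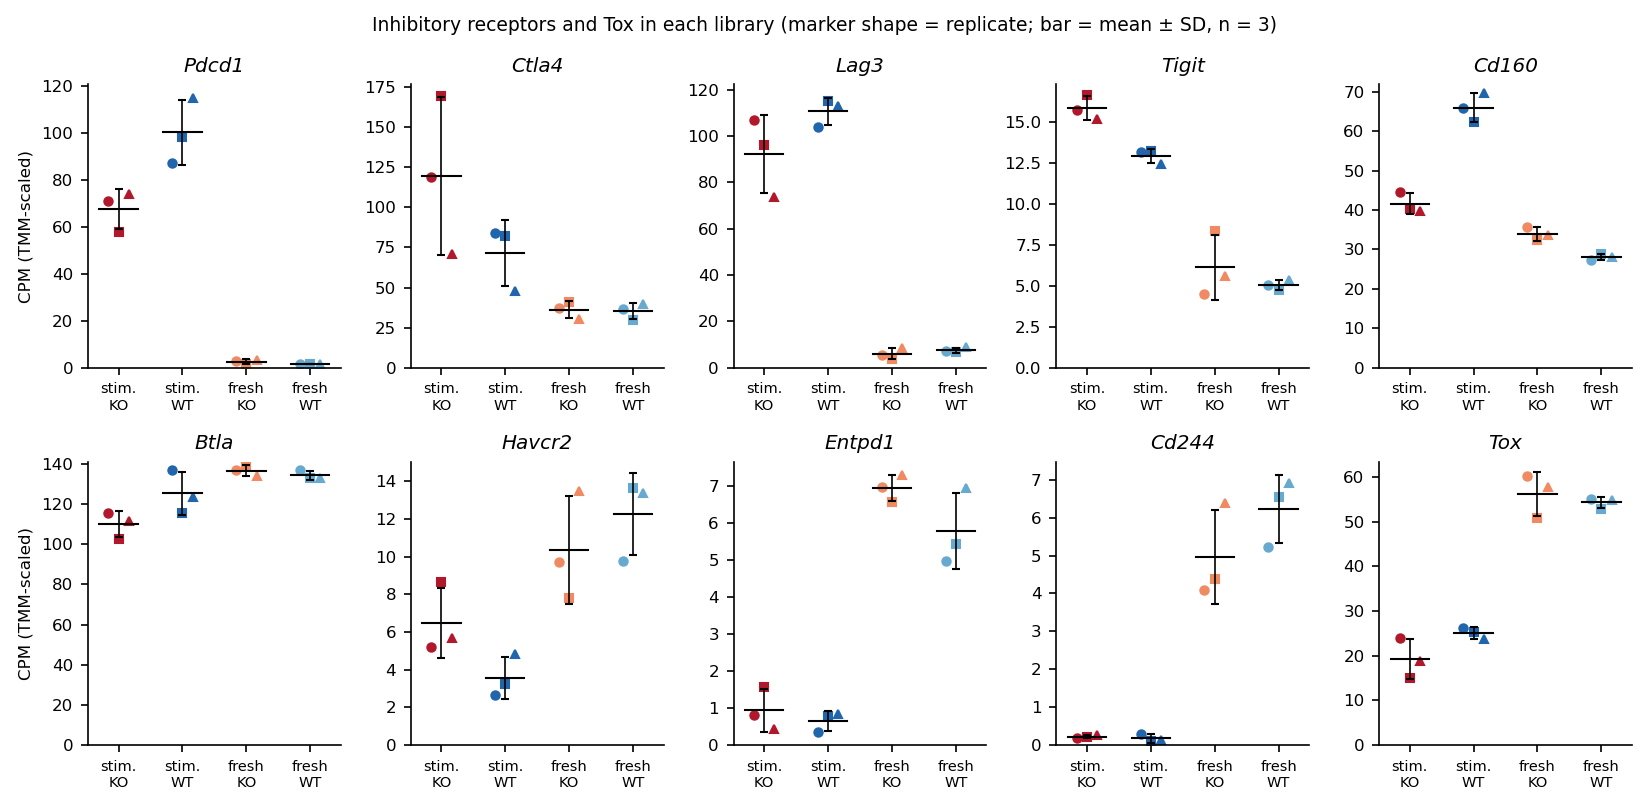
Level of each member in every library, in CPM on a linear axis from 0, with stimulated knockout, stimulated wild-type, fresh knockout and fresh wild-type libraries from left to right. Points are libraries, their shape is the replicate, and bars are the mean ± SD (n = 3). Pdcd1 and Lag3 sit far above their fresh levels in all 6 stimulated libraries, Cd244 sits far below them, and Cd160 is lower in the 3 stimulated knockout libraries than in the 3 stimulated wild-type libraries.

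Pdcd1 encodes PD-1, the receptor for PD-L1 and PD-L2, and lies on the minus strand at chr1:94038305-94052553 (GENCODE M21, GRCm38). It had 71.2, 58.0 and 73.9 CPM in stimulated knockout, 87.5, 98.5 and 115 CPM in stimulated wild-type, 2.96, 1.49 and 3.50 CPM in fresh knockout libraries, and 1.64, 1.70 and 1.80 CPM in fresh wild-type libraries. No stimulated library came near a fresh one, and every stimulated knockout library lay below every stimulated wild-type library. The level was 25.7-fold higher with stimulation in knockout cells (log2 fold change 4.69, SE 0.19, edgeR adjusted p = 1.46e-12) and 58.6-fold higher in wild-type cells (log2 fold change 5.87, SE 0.20, edgeR adjusted p = 3.63e-13). Pdcd1 had the largest stimulation fold of the 10 members in both genotypes.

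Lag3 encodes a CD4-related receptor that binds MHC class II, and lies beside Cd4 on the minus strand at chr6:124904361-124911705. It had 107, 96.2 and 73.7 CPM in stimulated knockout, 104, 115 and 113 CPM in stimulated wild-type, 5.45, 3.98 and 8.53 CPM in fresh knockout libraries, and 7.05, 6.64 and 8.79 CPM in fresh wild-type libraries. Stimulated and fresh libraries did not overlap, while the genotypes overlapped in both states. The rise was 15.4-fold in knockout cells (edgeR adjusted p = 1.66e-11) and 14.9-fold in wild-type cells (edgeR adjusted p = 2.16e-11).

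Ctla4 encodes the high-affinity receptor for CD80 and CD86 and lies on the plus strand at chr1:60887000-60915832, next to the costimulatory genes Cd28 and Icos. It had 119, 169 and 70.9 CPM in stimulated knockout, 84.2, 82.3 and 47.8 CPM in stimulated wild-type, 37.2, 41.0 and 30.4 CPM in fresh knockout libraries, and 36.8, 29.7 and 39.7 CPM in fresh wild-type libraries. The stimulated libraries all lay above the fresh ones, but they were widely spread. The rise was 3.30-fold in knockout cells (edgeR adjusted p = 1.43e-05) and 2.02-fold in wild-type cells (edgeR adjusted p = 0.00222). Its neighbour Icos also rose, with log2 fold changes of 1.93 in knockout and 1.59 in wild-type cells.

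Tigit encodes a receptor for PVR (CD155) with an inhibitory tail motif, on the minus strand at chr16:43648867-43664146. It had 15.7, 16.6 and 15.1 CPM in stimulated knockout, 13.1, 13.2 and 12.4 CPM in stimulated wild-type, 4.47, 8.33 and 5.61 CPM in fresh knockout libraries, and 5.04, 4.75 and 5.33 CPM in fresh wild-type libraries. Stimulated and fresh libraries were apart in both genotypes. The rise was 2.56-fold in knockout cells (edgeR adjusted p = 6.01e-07) and 2.57-fold in wild-type cells (edgeR adjusted p = 1.23e-06).

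Cd160 encodes a lipid-anchored receptor of the herpesvirus entry mediator HVEM, on the minus strand at chr3:96798763-96829351. It had 44.6, 40.4 and 39.8 CPM in stimulated knockout, 65.9, 62.3 and 69.7 CPM in stimulated wild-type, 35.8, 32.3 and 33.7 CPM in fresh knockout libraries, and 27.4, 28.8 and 28.0 CPM in fresh wild-type libraries. The 4 groups did not overlap at any point, with stimulated wild-type libraries highest and fresh wild-type libraries lowest. The rise was 1.23-fold in knockout cells (edgeR adjusted p = 0.000827) and 2.35-fold in wild-type cells (edgeR adjusted p = 1.05e-10).

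Promoter sequences of the genes that rose together are shown because T cell receptor signalling reaches many activation genes through the transcription factors NFAT and AP-1. RefSeq (GRCm38.p6) promoter entries matched 8 of the 10 members, and 4 of these 8 were among the 5 that rose. Each sequence is the 250 bases before a transcript start, 5′ to 3′ on the gene's own strand, with the letters of the NFAT core GGAAA or its reverse complement TTTCC in capitals. The regions are chr1:94052554-94052803 on the minus strand for Pdcd1, chr1:60908775-60909024 on the plus strand for Ctla4, chr16:43664185-43664434 on the minus strand for Tigit, and chr3:96829352-96829601 and chr3:96814522-96814771 on the minus strand for the upstream and downstream starts of Cd160.
Pdcd1: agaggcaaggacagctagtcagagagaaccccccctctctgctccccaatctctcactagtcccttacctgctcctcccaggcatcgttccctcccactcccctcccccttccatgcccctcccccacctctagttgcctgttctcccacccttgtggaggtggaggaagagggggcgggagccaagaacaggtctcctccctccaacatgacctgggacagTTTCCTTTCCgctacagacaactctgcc
Ctla4: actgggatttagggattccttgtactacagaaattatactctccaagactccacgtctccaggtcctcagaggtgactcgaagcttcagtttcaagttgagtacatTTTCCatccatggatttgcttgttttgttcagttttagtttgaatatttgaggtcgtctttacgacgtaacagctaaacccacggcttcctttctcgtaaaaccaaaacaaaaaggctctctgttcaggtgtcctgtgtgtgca
Tigit: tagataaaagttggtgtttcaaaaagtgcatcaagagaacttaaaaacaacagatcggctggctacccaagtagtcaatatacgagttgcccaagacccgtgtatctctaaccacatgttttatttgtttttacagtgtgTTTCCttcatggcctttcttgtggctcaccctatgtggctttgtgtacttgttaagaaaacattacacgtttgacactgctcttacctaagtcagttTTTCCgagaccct
Cd160, upstream start: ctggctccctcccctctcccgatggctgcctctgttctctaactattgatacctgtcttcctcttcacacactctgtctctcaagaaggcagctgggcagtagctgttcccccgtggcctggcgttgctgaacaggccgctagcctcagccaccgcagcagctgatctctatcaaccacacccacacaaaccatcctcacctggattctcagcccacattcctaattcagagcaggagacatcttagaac
Cd160, downstream start: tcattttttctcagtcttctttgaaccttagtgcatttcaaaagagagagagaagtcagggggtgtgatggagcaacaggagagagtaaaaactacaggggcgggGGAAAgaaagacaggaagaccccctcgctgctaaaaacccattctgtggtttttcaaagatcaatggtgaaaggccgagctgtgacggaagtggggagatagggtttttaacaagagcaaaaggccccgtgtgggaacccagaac
Both strands were searched, for the NFAT core and for the AP-1 motif TGANTCA, and the 2 motifs did not overlap in these windows. Pdcd1 held 2 NFAT core matches, ending 24 and 19 bases before the start, in a run where they touch. Ctla4 held 1, ending 140 bases before the start, Tigit held 2, ending 106 and 9 bases before it, and Cd160 held 1 at its downstream start, ending 141 bases before it, and none at its upstream start. None of these 5 windows held the AP-1 letters. Of 32851 RefSeq promoter windows of this length, 55.6% held the NFAT core and 6.75% the AP-1 motif, so such matches are common and describe only these letters. Among members that fell or held, Havcr2 and Cd244 held 1 AP-1 match each, Cd244 held 1 NFAT core match, 1 of the 2 Entpd1 starts held 2, and the Btla window held neither motif.

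Tox, Havcr2, Entpd1 and Cd244 fell with stimulation in both genotypes. Tox lies on the minus strand at chr4:6686353-6991557. It had 24.0, 14.9 and 18.9 CPM in stimulated knockout, 26.1, 25.4 and 23.7 CPM in stimulated wild-type, 60.2, 50.7 and 57.7 CPM in fresh knockout libraries, and 55.2, 52.9 and 54.9 CPM in fresh wild-type libraries. All fresh libraries lay above all stimulated ones. Tox was at 34.5% of the fresh level in stimulated knockout cells (log2 fold change -1.53, SE 0.12, edgeR adjusted p = 6.49e-09) and at 46.2% in stimulated wild-type cells (log2 fold change -1.12, SE 0.12, edgeR adjusted p = 3.13e-07).

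Havcr2 encodes TIM-3, an inhibitory receptor of T cells that dendritic and other myeloid cells also carry, at chr11:46454935-46481255 on the plus strand. It had 5.19, 8.63 and 5.68 CPM in stimulated knockout, 2.66, 3.23 and 4.82 CPM in stimulated wild-type, 9.71, 7.83 and 13.5 CPM in fresh knockout libraries, and 9.78, 13.7 and 13.4 CPM in fresh wild-type libraries. Stimulated and fresh libraries were apart in wild type and overlapped in knockout, where 1 stimulated library exceeded 1 fresh one. The level with stimulation was 62.3% of fresh in knockout cells (edgeR adjusted p = 0.0136) and 29.4% in wild-type cells (edgeR adjusted p = 7.99e-06). The call in knockout cells was lost without fresh knockout replicate 3 (edgeR adjusted p = 0.1), without stimulated knockout replicate 1 (edgeR adjusted p = 0.07) or without stimulated knockout replicate 3 (edgeR adjusted p = 0.0502).

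Entpd1 encodes CD39, an ectoenzyme that degrades extracellular ATP, at chr19:40612366-40741602 on the plus strand. It had 0.81, 1.57 and 0.43 CPM in stimulated knockout, 0.35, 0.77 and 0.83 CPM in stimulated wild-type, 6.96, 6.56 and 7.29 CPM in fresh knockout libraries, and 4.98, 5.43 and 6.92 CPM in fresh wild-type libraries. All stimulated libraries were below all fresh ones, and the stimulated level was 13.1% of fresh in knockout cells (edgeR adjusted p = 1.19e-07) and 11.6% in wild-type cells (edgeR adjusted p = 1.72e-07). Cd244 encodes 2B4, a receptor for CD48 found on natural killer (NK) cells and on memory or exhausted CD8 T cells, at chr1:171559193-171609746 on the plus strand. It had 5, 4 and 6 raw counts in stimulated knockout and 6, 2 and 3 raw counts in stimulated wild-type libraries, and 4.10, 4.39 and 6.38 CPM in fresh knockout and 5.22, 6.54 and 6.92 CPM in fresh wild-type libraries. Nearly all of its reads came from fresh libraries. It was 22.0-fold lower with stimulation in knockout cells (edgeR adjusted p = 9.84e-10) and 35.4-fold lower in wild-type cells (edgeR adjusted p = 3.15e-10), with the stimulated level set by few counts.

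Most markers of dendritic, myeloid, B and NK cells were lower in the same libraries, as were all 8 CD8 T cell markers in both genotypes. Of all tested genes, 42.2% were lower with stimulation in knockout and 41.4% in wild-type cells. Of 15 dendritic cell markers, 13 were lower with stimulation in knockout and 13 in wild-type cells, and 9 of 9 tested myeloid and 10 of 10 B cell markers were lower in both genotypes. Of 8 tested NK cell markers 7 were lower and 1, Eomes, was higher in both genotypes, and of 8 CD4 and regulatory T cell markers 3 were lower and 4 higher in both. Myeloid markers, mostly Ly6c2, which T cells also express, summed to 40.3 to 46.5 CPM in stimulated knockout, 62.6 to 78.0 CPM in stimulated wild-type, 240.4 to 347 CPM in fresh knockout and 217 to 347 CPM in fresh wild-type libraries. NK cell markers, mostly Eomes in stimulated libraries, summed to 169 to 193, 179 to 208, 395 to 438 and 341 to 369.7 CPM in the same order of groups, with Klra8 and Klra4 at 0 in every library and with 2 counts of the defining marker Ncr1 in all stimulated knockout libraries and 4 in all stimulated wild-type libraries. Eomes, which activated CD8 T cells also express, made up 166 CPM of the NK sum in stimulated knockout and 170.2 CPM in stimulated wild type, so the other NK cell markers were lower by more than the sums show. Much of that was Cd7, which T cells also express, at 232 CPM in fresh knockout and 201 CPM in fresh wild type. It was at 2.04 and 2.30 CPM in the stimulated groups. Ncr1 was low in fresh cells too, at 0.457 CPM in knockout and 0.991 CPM in wild type. B cell markers summed to 24.6 to 32.8, 30.1 to 36.2, 177 to 245 and 166 to 196 CPM in the same order. Their part in the falls of Havcr2, Entpd1, Cd244 and Tox was not tested, and in these bulk libraries fewer cells of a type and less RNA per cell cannot be told apart.

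**Figure D2:**
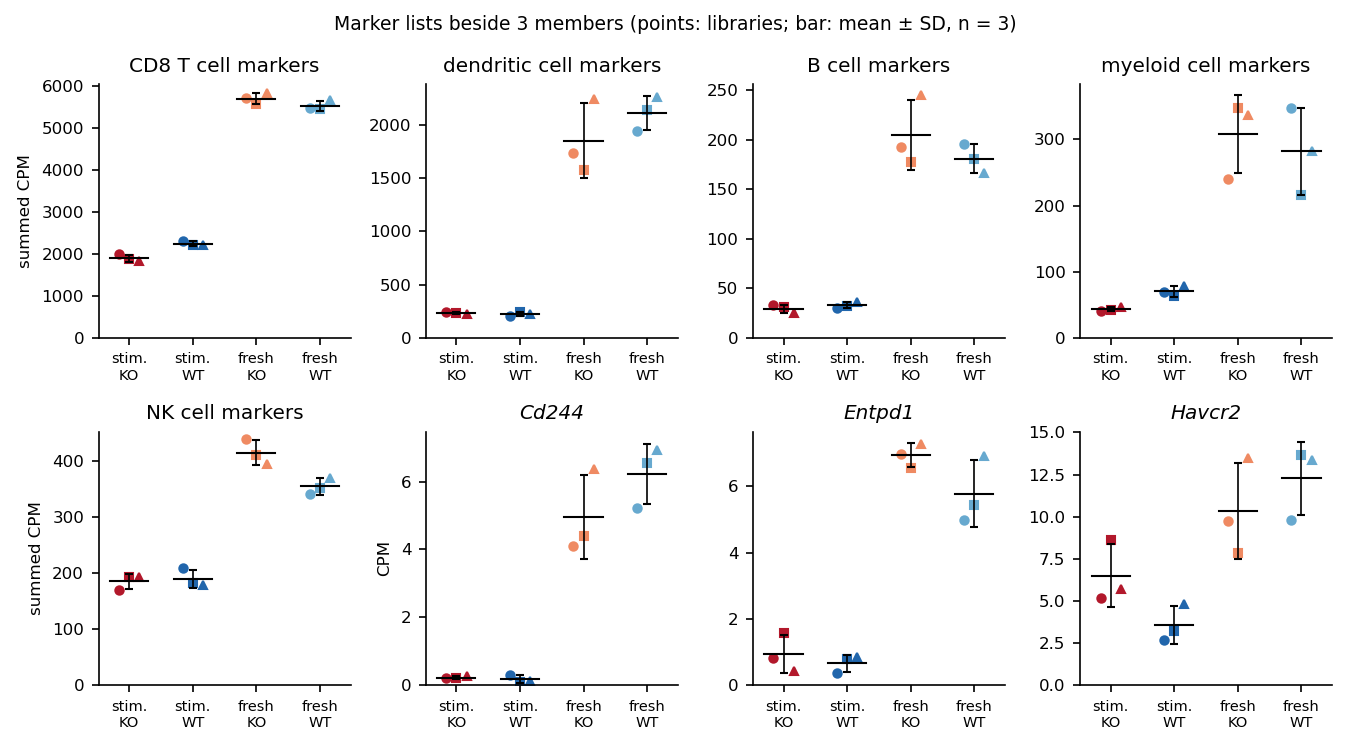
Summed CPM of the CD8 T cell, dendritic cell, B cell, myeloid and NK cell marker lists, and CPM of Cd244, Entpd1 and Havcr2, on linear axes from 0 (points: libraries, bars: mean ± SD, n = 3). Stimulated libraries lie below fresh ones for all 5 lists and, in wild type, for all 3 members, and 1 stimulated knockout library overlaps the fresh ones for Havcr2.

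Btla, a second receptor for HVEM, at chr16:45224315-45257670 on the plus strand, had the smallest change in wild-type cells. It had 115, 103 and 112 CPM in stimulated knockout, 137, 116 and 124 CPM in stimulated wild-type, 137, 139 and 134 CPM in fresh knockout libraries, and 137, 133 and 133 CPM in fresh wild-type libraries. Stimulated knockout libraries lay below all others, and the other 3 groups overlapped. Btla was lower with stimulation in knockout cells (log2 fold change -0.31, SE 0.06, edgeR adjusted p = 0.000116). It did not pass the test in wild-type cells (log2 fold change -0.10, 95% interval -0.22 to 0.02, edgeR adjusted p = 0.121), where it was called without stimulated wild-type replicate 1 (edgeR adjusted p = 0.0132).

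**Figure D3:**
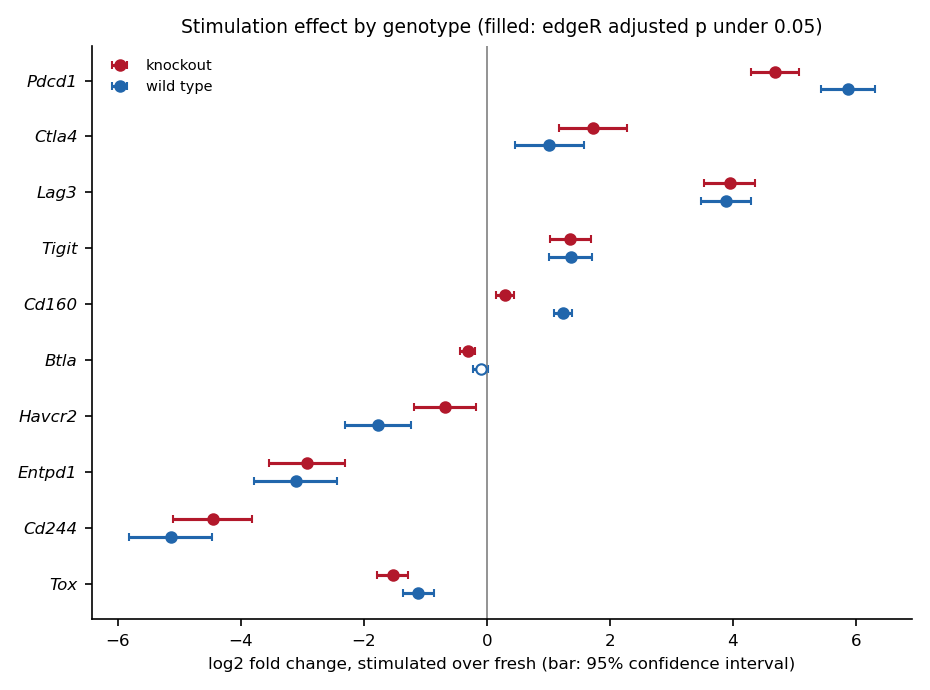
Log2 fold change of each member, stimulated over fresh, with 95% intervals, for knockout and wild-type cells. Pdcd1 and Lag3 are farthest to the right, Cd244 and Entpd1 farthest to the left, Btla and, in knockout, Cd160 are close to 0, and the intervals of the genotypes do not meet for Pdcd1, Cd160 and, narrowly, Havcr2. Filled points passed edgeR's test.

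Levels were compared between genes per kilobase of exon. In fresh cells Btla stood highest, at 40.3 ± 0.756 CPM per kb in knockout and 39.6 ± 0.699 CPM per kb in wild type, followed by Ctla4 at 15.5 ± 2.31 and 15.2 ± 2.20 CPM per kb and Cd160 at 12.8 ± 0.669 and 10.6 ± 0.272 CPM per kb. Ctla4 and Cd160 differed by little more than 1 SD of Ctla4 in knockout. Pdcd1, Entpd1 and Cd244 were the lowest in both fresh groups, between 0.887 and 1.37 CPM per kb, and their order changed with the genotype.

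After stimulation the order was led by other receptors. In stimulated knockout cells Ctla4 was at 51.4 ± 21.2, Lag3 at 43.7 ± 7.99, Pdcd1 at 35.1 ± 4.43 and Btla at 32.4 ± 1.94 CPM per kb. In stimulated wild-type cells Lag3 was at 52.5 ± 2.80, Pdcd1 at 52.0 ± 7.19, Btla at 36.9 ± 3.14 and Ctla4 at 30.6 ± 8.79 CPM per kb. Ctla4 and Lag3 in knockout, and Lag3 and Pdcd1 in wild type, did not differ beyond their spread. Tox, Havcr2, Entpd1 and Cd244 took the last 4 ranks, in that order, in both stimulated groups, though in knockout Tox (2.53 ± 0.599 CPM per kb) and Havcr2 (2.39 ± 0.685 CPM per kb) did not differ beyond their spread. Summed over the 9 receptors, not per length, libraries held 478, 494 and 392 CPM in stimulated knockout, 495, 491 and 487 CPM in stimulated wild-type, 243, 245 and 243 CPM in fresh knockout cells, and 235, 230.5 and 244 CPM in fresh wild-type cells. The sum was higher in all stimulated libraries, and stimulated knockout replicate 3 stood below the other 5 of them.

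In stimulated cells, loss of Otub1 went with lower Cd160 and Pdcd1. These 2 of the 10 members were called, both lower, against 9.3% of all tested genes called, 5.08% higher and 4.22% lower. Knockout and wild-type libraries did not overlap for 5 members (27.4% of all genes did not), with Havcr2 and Tigit higher and Cd160, Pdcd1 and Btla lower in knockout. The median log2 fold change was 0.05 over the members and -0.00 over all genes, so the list did not move one way.

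Cd160 averaged 41.6 ± 2.61 CPM in stimulated knockout and 66.0 ± 3.71 CPM in stimulated wild-type cells, or 63.1% of wild type (log2 fold change -0.66, SE 0.07, edgeR adjusted p = 8.97e-05). All 3 knockout libraries were lower than all 3 wild-type libraries, and the gene had rank 7 by p among 12759. The difference kept its call under all 13 alternatives, between -0.72 and -0.62 on the log2 scale, with a highest adjusted p of 0.00278. Pdzk1, on the opposite strand, shares 68 exon bases with Cd160, and the strand setting of the counting is not given in the sources used here. Its own log2 fold change was -0.18 (edgeR adjusted p = 0.287), and that of the other neighbour, Rnf115, was -0.06 (edgeR adjusted p = 0.502).

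Pdcd1 averaged 67.7 ± 8.54 CPM in stimulated knockout and 100.3 ± 13.9 CPM in stimulated wild-type cells, or 67.5% of wild type (log2 fold change -0.57, 95% interval -0.85 to -0.28, edgeR adjusted p = 0.0157). The libraries did not overlap, but the gap was small beside the spread: the highest knockout library had 73.9 CPM and the lowest wild-type library 87.5 CPM. The call was lost without stimulated knockout replicate 2 (edgeR adjusted p = 0.054), without stimulated wild-type replicate 3 (edgeR adjusted p = 0.0919) and with DESeq2 (adjusted p = 0.0778), with the direction kept.

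The other 8 members did not pass the test in stimulated cells. Havcr2 was at 6.50 ± 1.86 CPM in knockout and 3.57 ± 1.12 CPM in wild type (log2 fold change 0.83, SE 0.26, edgeR adjusted p = 0.0565). Every knockout library was above every wild-type library, by as little as 5.19 against 4.82 CPM, and it was called with DESeq2 (adjusted p = 0.0106), without stimulated knockout replicate 1 (edgeR adjusted p = 0.0492) and without stimulated wild-type replicate 3 (edgeR adjusted p = 0.0372). Without a filter on low counts Havcr2 was called as well (edgeR adjusted p = 0.0182), as were Ctla4 (0.0169), Tox (0.0371) and Btla (0.0451), and with Y-linked reads as a covariate Havcr2 was called (edgeR adjusted p = 0.047). Beside it, the summed dendritic cell markers overlapped between the genotypes, but 2 of the 15 were called higher in stimulated knockout cells and 1 lower. The higher ones were the transcription factor genes Batf3, at 32.2 CPM in knockout and 16.7 CPM in wild type, and Zbtb46, at 7.80 CPM in knockout and 4.61 CPM in wild type. In fresh cells Batf3 was at 2.65 and 2.62 CPM and Zbtb46 at 3.52 and 3.84 CPM in the same order. Both thus averaged higher with stimulation, while 13 of the 15 markers were lower with stimulation in each genotype. Between the stimulated genotypes the other dendritic cell markers went either way. Cd74 averaged 46.5 CPM in knockout and 57.9 CPM in wild type, and Ccr9 2.50 and 4.26 CPM. Bst2 averaged 76.1 and 71.0 CPM and H2-Ab1 8.91 and 8.01 CPM in the same order. The median log2 fold change of the list was -0.08. Of 9 tested myeloid markers 1, Ly6c2, was called, at 39.5 CPM in knockout and 65.8 CPM in wild type, and each of the others averaged at most 3.35 CPM in either group. The part of these cells in the Havcr2 difference was not tested. Ctla4 was at 119.7 ± 49.3 CPM in knockout and 71.4 ± 20.5 CPM in wild type (log2 fold change 0.74, SE 0.25, edgeR adjusted p = 0.0761). Its knockout replicate 3 lay below 2 of the wild-type libraries, and without that replicate the log2 fold change was 1.01 (edgeR adjusted p = 0.00795). It was also called when the libraries with Y-linked reads were left out (edgeR adjusted p = 0.0103), which in stimulated cells removes only that same replicate.

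Tox was at 19.3 ± 4.56 CPM in stimulated knockout and 25.1 ± 1.24 CPM in stimulated wild-type cells (log2 fold change -0.37, SE 0.12, edgeR adjusted p = 0.0759). Knockout replicate 1 overlapped the wild-type libraries, and without it the log2 fold change was -0.56 (edgeR adjusted p = 0.00503). Btla was at 110.0 ± 6.59 CPM in knockout and 125 ± 10.7 CPM in wild type (log2 fold change -0.19, edgeR adjusted p = 0.0551). DESeq2 called both (adjusted p = 0.0275 for Tox and 0.04 for Btla), and Btla was also called without stimulated wild-type replicate 2 (edgeR adjusted p = 0.0258). Tigit had a log2 fold change of 0.29 (95% interval -0.01 to 0.60), Lag3 of -0.26 (-0.59 to 0.06), Entpd1 of 0.45 (-0.40 to 1.30) and Cd244 of 0.36 (-0.80 to 1.52). The last 2 intervals, from genes with few counts in stimulated cells, hold more than a 2-fold change. Beside these comparisons, 4 of 8 CD8 T cell markers were called lower and 0 higher in stimulated knockout cells, where 4.22% of all tested genes were lower. Summed, the 8 held 1823 to 1993 CPM in stimulated knockout and 2197 to 2300.0 CPM in stimulated wild-type libraries. Their part in the differences of Cd160, Pdcd1 and the other members was not tested.

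**Figure D4:**
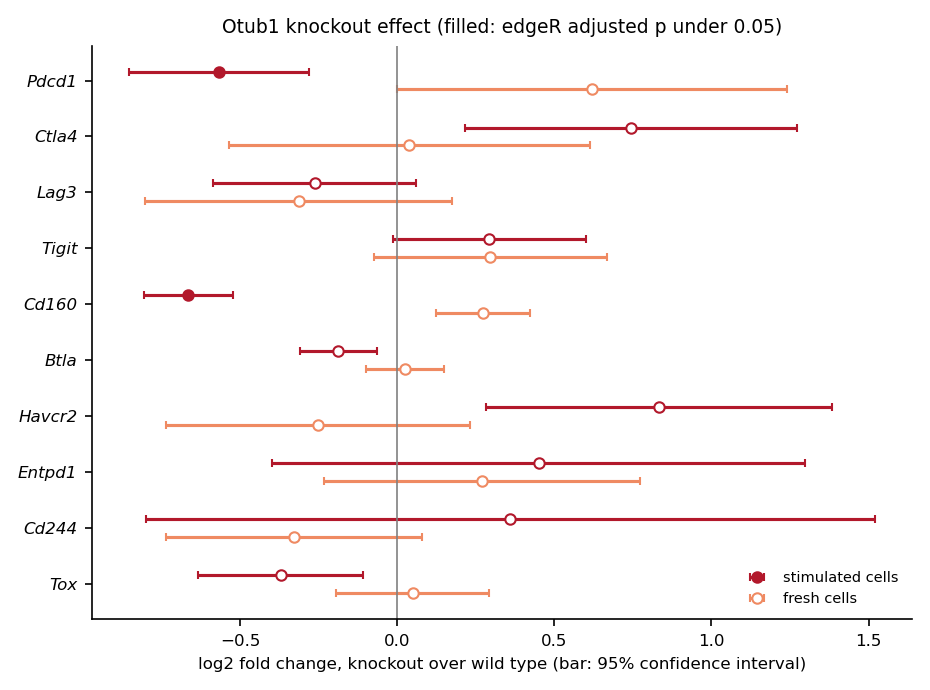
Log2 fold change of each member, knockout over wild type, with 95% intervals, in stimulated and in fresh cells. Cd160 is below 0 in stimulated and above 0 in fresh cells, Pdcd1 is below 0 in stimulated cells, and in fresh cells the intervals of 8 of the 10 members include 0. Filled points passed edgeR's test, which Ctla4, Havcr2, Btla and Tox in stimulated cells did not, although their unadjusted intervals leave out 0.

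In fresh cells none of the 10 members was called by edgeR, where 1.2% of all tested genes were called, 0.98% higher and 0.219% lower. At an unadjusted p under 0.05 there were 2, Pdcd1 and Cd160, and DESeq2 called 1 and limma-voom none. Cd160 averaged 33.9 ± 1.77 CPM in fresh knockout and 28.1 ± 0.719 CPM in fresh wild-type cells (log2 fold change 0.27, SE 0.07, edgeR adjusted p = 0.0753, DESeq2 adjusted p = 0.029). It was the only member whose fresh libraries did not overlap, which 20% of all tested genes also did not. The summed NK cell markers did not overlap either, at 395 to 438 CPM in fresh knockout and 341 to 369.7 CPM in fresh wild type, but the list did not move one way (median log2 fold change -0.02). Eomes, at 97.9 CPM in fresh knockout and 63.2 CPM in fresh wild type, and Cd7, at 232 and 201 CPM in the same order, held most of the difference, and T cells express both. The defining markers Ncr1, at 0.457 and 0.991 CPM, and Klrb1c, at 1.82 and 3.15 CPM, averaged lower in fresh knockout. So did Klrk1, at 28.4 and 35.6 CPM, and Tyrobp, at 9.81 and 11.5 CPM. Klre1, at 6.53 and 5.08 CPM, and Gzma, at 37.8 and 33.3 CPM, averaged higher in fresh knockout. The part of NK cells in the Cd160 level was not tested.

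Fresh Pdcd1 was low, with 163 raw counts over the 3 fresh knockout and 89 over the 3 fresh wild-type libraries, and its log2 fold change was 0.62 (edgeR adjusted p = 0.353). Fresh knockout replicate 2 was lower than all wild-type libraries and the other 2 were higher. For Btla the log2 fold change in fresh cells was 0.03 (95% interval -0.10 to 0.15) and for Tox 0.05 (-0.20 to 0.29). The remaining 6 members had log2 fold changes of -0.33 (Cd244) to 0.30 (Tigit), all with overlapping libraries.

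Whether the genotype difference depended on stimulation was tested directly by the interaction. Cd160 was the 1 of 10 members called, against 2.26% of all tested genes (0.698% with a higher and 1.56% with a lower difference), and had the lowest p of all 12759. Its difference was -0.94 on the log2 scale (SE 0.10, edgeR adjusted p = 0.00095), the stimulated effect of -0.66 minus the fresh effect of 0.27. The call held in all 18 alternatives, with differences of -0.99 to -0.89. In other terms, the rise with stimulation was 1.23-fold in knockout and 2.35-fold in wild type, while both genotypes still rose.

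Pdcd1 had a difference of -1.19 (SE 0.32, edgeR adjusted p = 0.0659), as the stimulation fold was 25.7 in knockout and 58.6 in wild type. It was called with DESeq2 (adjusted p = 0.0255) and without stimulated wild-type replicate 1 (edgeR adjusted p = 0.0474). Leaving out fresh knockout replicate 2 also gave a call (edgeR adjusted p = 0.0128). So did leaving out the 3 libraries with Y-linked reads (edgeR adjusted p = 0.0301), which include that replicate. Havcr2 had a difference of 1.08 (SE 0.34, edgeR adjusted p = 0.119; DESeq2 adjusted p = 0.0324), and Tox of -0.42 (SE 0.17, edgeR adjusted p = 0.223), called without stimulated knockout replicate 1 (edgeR adjusted p = 0.0295). For Lag3 and Tigit the estimates were 0.05 (95% interval -0.53 to 0.63) and -0.00 (-0.46 to 0.45). Equal effects and differences as large as the ends of these intervals were not told apart.

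Genes with the pattern most like each member were found as the smallest root mean square difference of centred log2 CPM over the 12 libraries, among 9461 or 9462 genes. These genes were chosen over the same libraries, so a genotype difference that they share with a member is fixed by the choice and is given as a description. The nearest to Cd160 was Endod1 at 0.10, with 15.8, 11.8 and 12.3 CPM in stimulated knockout, 19.6, 19.2 and 19.7 CPM in stimulated wild-type, 11.2, 11.0 and 10.5 CPM in fresh knockout libraries, and 8.93, 9.54 and 7.79 CPM in fresh wild-type libraries. Like those of Cd160, its stimulated knockout libraries all lay below its stimulated wild-type libraries (log2 fold change -0.55). The next was Tmem154 at 0.14 (log2 fold change -0.46). The nearest to Ctla4 were Fam132a at 0.27 and Hilpda, a lipid droplet protein gene, at 0.28.

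Hilpda had 34.6, 55.1 and 36.0 CPM in stimulated knockout, 21.6, 23.4 and 17.7 CPM in stimulated wild-type, 12.5, 13.0 and 13.8 CPM in fresh knockout libraries, and 14.1, 12.3 and 14.1 CPM in fresh wild-type libraries. As for Ctla4, stimulated knockout replicate 2 was the highest and stimulated wild-type replicate 3 the lowest stimulated library, and the log2 fold change of Hilpda between the stimulated genotypes was 1.00. Pdcd1 was nearest to Dgat2 at 0.27 and Chst2 at 0.35, Tox to Hdac7 at 0.12, and Btla to Tgfbrap1 at 0.050 and Mphosph9 at 0.061. The other pairs were Ccdc57 at 0.29 and Sqle at 0.30 for Lag3, Trps1 at 0.17 and Heg1 at 0.18 for Tigit, Adam8 at 0.31 and Irf5 at 0.31 for Havcr2, Pygm at 0.30 and Rasgrf2 at 0.37 for Entpd1, and Fam101b at 0.24 and Bambi-ps1 at 0.26 for Cd244.

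**Figure D5:**
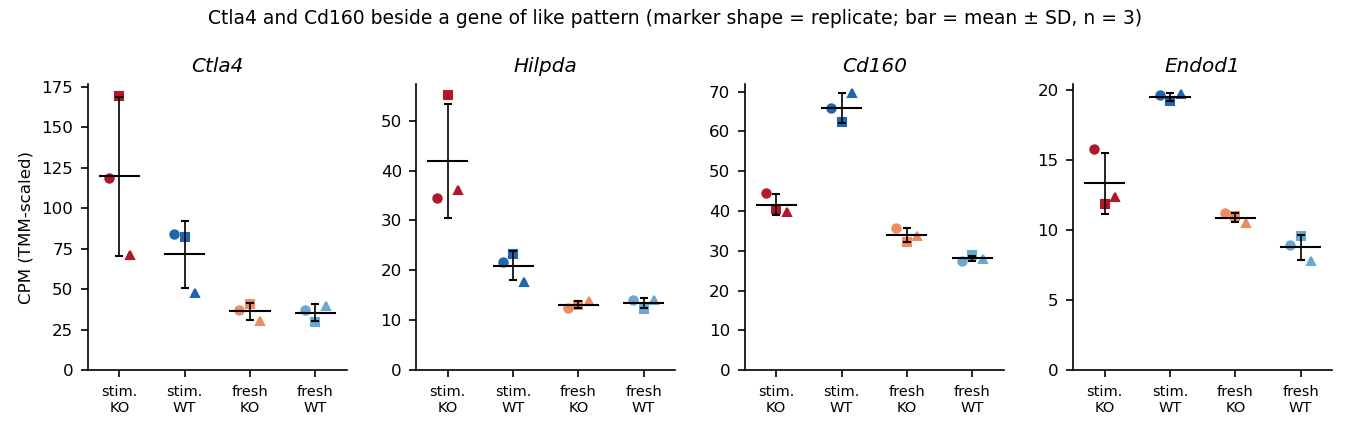
CPM of Ctla4 beside Hilpda and of Cd160 beside Endod1 in each group, on linear axes from 0 (points: libraries, shape: replicate, bars: mean ± SD, n = 3). The stimulated groups stand in the same order in each pair, and stimulated knockout replicate 2 is the highest library for both Ctla4 and Hilpda.

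Other inhibitory receptors were counted as a list of 17. With stimulation, 2 rose and 12 fell in knockout and 3 rose and 12 fell in wild-type cells. The share called in either direction was near that of all genes (83.9% and 82.3%). By direction it was not: of all genes 41.7% were higher and 42.2% lower in knockout, and 40.8% higher and 41.4% lower in wild type. The list had median log2 fold changes of -1.67 and -1.73 against -0.02 and -0.03 over all genes. Most dendritic, myeloid, B and CD8 T cell markers fell with stimulation as well, and the part of cell content in these falls was not tested. The fallers included Cd72, an inhibitory receptor gene of B cells, and Cd96, which encodes a receptor of nectin-like proteins. In stimulated knockout cells against wild type, 1 was higher and 2 were lower, where 9.3% of all genes were called. VISTA, listed under the symbol 4632428N05Rik, was at 146 ± 4.70 CPM in stimulated knockout and 196 ± 5.62 CPM in stimulated wild type (log2 fold change -0.42, edgeR adjusted p = 0.000124), and Cd96, which shares the ligand PVR with Tigit, was lower as well (log2 fold change -0.36, edgeR adjusted p = 0.00518). Klrc1, an NKG2 receptor gene, was higher (log2 fold change 0.52, edgeR adjusted p = 0.0312), and lost its call in 8 of 13 alternatives. In fresh cells none of the 17 was called by the edgeR fit used throughout, with 5 at an unadjusted p under 0.05. Other settings called some: 3 with DESeq2, 3 with limma-voom, 2 without a filter, 2 with Y-linked reads as a covariate, 2 with only the groups compared and 1 without fresh wild-type replicate 1.

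Of 16 tested ligands and counter-receptors, 8 rose and 5 fell with stimulation in knockout and 8 rose and 6 fell in wild-type cells, again near the 83.9% and 82.3% of all genes called. In wild type the PD-1 ligand gene Pdcd1lg2 rose (log2 fold change 4.64), as did Cd200 (4.58) and Icos (1.59), and the CD244 ligand gene Cd48 fell (-1.44). In stimulated knockout cells against wild type 1 of the 16 was higher and 2 were lower, where 9.3% of all genes were called. Tnfrsf14, which encodes HVEM, the ligand of both CD160 and BTLA, was at 19.3 ± 0.327 CPM in stimulated knockout, against 27.6 ± 1.55 CPM in stimulated wild type (log2 fold change -0.51, edgeR adjusted p = 0.00021). Cd160 and Tnfrsf14 were thus both lower, and Btla was lower without passing the test. Pvr, the TIGIT ligand, was higher, at 27.3 ± 3.08 CPM in stimulated knockout and 18.0 ± 1.14 CPM in stimulated wild type (log2 fold change 0.60, edgeR adjusted p = 0.000558). It was also called higher in fresh cells (log2 fold change 0.40, edgeR adjusted p = 0.0382), a call lost whichever fresh library was left out, with an adjusted p of 0.054 to 0.126. Pdcd1lg2 was lower in stimulated knockout cells (log2 fold change -0.43, edgeR adjusted p = 0.0136), and not called without stimulated wild-type replicate 3 (edgeR adjusted p = 0.103).

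Of 24 signalling and ectonucleotidase partners, 5 rose and 17 fell with stimulation in knockout and 6 rose and 15 fell in wild-type cells. Of all genes 83.9% and 82.3% were called, with 41.7% higher and 42.2% lower in knockout and 40.8% higher and 41.4% lower in wild type. Dgka, a diacylglycerol kinase gene that damps T cell receptor signalling, had a log2 fold change of -2.60 in wild type and Cblb, an E3 ubiquitin ligase gene, of 1.38. In stimulated knockout cells against wild type 1 was higher and 3 were lower, where 5.08% of all genes were higher and 4.22% lower. Sh2d1a, which encodes the adaptor SAP that binds the CD244 tail, was at 19.7 ± 0.690 CPM in knockout and 13.2 ± 1.75 CPM in wild type (log2 fold change 0.58, edgeR adjusted p = 0.00114). Dgka (-0.28, edgeR adjusted p = 0.00287), Dgkz (-0.31, edgeR adjusted p = 0.00458) and Pag1 (-0.26, edgeR adjusted p = 0.0224) were lower. Pag1 lost its call without stimulated knockout replicate 2 or 3 or stimulated wild-type replicate 1 or 3, with an adjusted p of 0.055 to 0.0929. In fresh cells only the adenosine receptor gene Adora2a was called by edgeR, higher in knockout (log2 fold change 0.66, edgeR adjusted p = 0.0104), and not without fresh wild-type replicate 2 (edgeR adjusted p = 0.0674).

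Of 21 tested Tox family members and exhaustion-associated transcription factors, 9 rose and 10 fell with stimulation in each genotype, where 83.9% of all genes were called in knockout and 82.3% in wild-type cells. In wild type Nr4a3, a target of T cell receptor signals, rose (log2 fold change 4.85), as did Tbx21 (2.82), while Tcf7, a factor of naive and memory-like cells, fell (-2.35), as did Foxo1 (-1.29). Tox2, the relative nearest to Tox in name and studied with it in exhausted cells, also fell (-2.28). In stimulated knockout cells 1 was higher and 6 were lower, against 5.08% of all genes higher and 4.22% lower. Prdm1, which encodes the repressor BLIMP-1, was higher (log2 fold change 1.05, edgeR adjusted p = 0.00845). Nfatc1 (-0.27, edgeR adjusted p = 0.00924), Tcf7 (-0.30, edgeR adjusted p = 0.0105) and Bach2 (-0.33, edgeR adjusted p = 0.0109) were among the lower ones. Without stimulated wild-type replicate 3, which also left 514 in place of 1187 genes called, 0 were higher and 3 lower.

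In fresh cells 2 of the 21 factors were called, both higher in knockout, against 0.98% of all tested genes called higher. Tbx21, which encodes T-bet, was at 30.7 ± 7.08 CPM in fresh knockout and 12.7 ± 1.20 CPM in fresh wild type (log2 fold change 1.28, edgeR adjusted p = 0.000301). Eomes was at 97.9 ± 18.0 CPM in fresh knockout and 63.1 ± 8.94 CPM in fresh wild type (log2 fold change 0.64, edgeR adjusted p = 0.0192, 0.111 without fresh wild-type replicate 2 and 0.0595 when the libraries with Y-linked reads were left out). Eomes stands on the NK cell marker list as well, where it was the 1 of 8 tested markers called. The genotype effect on Tbx21 differed between stimulated and fresh cells by -1.10 on the log2 scale (edgeR adjusted p = 0.0064), a call kept in all 18 alternatives.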

How the data were processed

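The deposited files hold raw counts per gene, 1 file for each of the 12 samples, as whole numbers that were not normalized. The submitters' processing notes name HTSeq, TopHat, TopHat2, DESeq2 and mm10. Versions, annotation and strand setting were not given in the sources used here. The 5 HTSeq summary lines in each file (5.22% to 6.43% of its total) were left out. Groups came from the source labels, and replicates were numbered in accession order only to name them. Pairs of replicates gave a chi-square of 4.26 to 18.6 per degree of freedom, above sampling noise, and none was merged.

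In R 4.3.3, edgeR 4.0.16 kept 12759 genes (filterByExpr by group), scaled by TMM (factors 0.9881 to 1.013) and fitted all 12 libraries in 1 quasi-likelihood model of the 4 groups (8 residual degrees of freedom). Tests were two-sided, and calls needed an adjusted p under 0.05 (Benjamini-Hochberg, over all 12759 genes). Alternatives were DESeq2 size factors, no filter, DESeq2 1.42.0, limma-voom 3.58.1, a Y-linked read covariate, only the groups compared, the libraries with Y-linked reads left out, and each library left out in turn. Gene lengths came from GENCODE M21 exons (GRCm38) and promoters from RefSeq GRCm38.p6. The members and lists were chosen with earlier results of these data known. All members are named, with up to 4 called genes of lowest adjusted p per list and comparison and the 2 most similar genes per member (1 of them is not reported here); Tox2 was added after its values were seen. The edgeR fit was tested on simulated counts. Low counts limit the precision of rare genes. Intervals of fold changes came from the quasi-likelihood fit, so they cover counting error and the spread between libraries.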

Additional observations from a re-analysis of the deposited data

Results flagged for a closer look

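The genotype effect differed between stimulated and fresh cells for Cd160, by a test of the difference itself: -0.937 on the log2 scale (edgeR adjusted p = 0.00095), with -0.66 in stimulated and 0.27 in fresh cells. Otub1, the deleted gene, differed in the same way by -1.47 (edgeR adjusted p = 0.00329), with -2.66 in stimulated and -1.19 in fresh cells. Groups of 3 libraries are too small for a test of single outlying libraries.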

How the results depend on the processing

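Of 699 recomputed member values, 650 kept their direction and side of the threshold, 6 lost and 24 gained a call, and 19, all uncalled, changed sign. Counts of genes and members called with stimulation stayed within 1.5 times in all alternatives. In the fresh genotype comparison 153 genes were called, 245 without a filter, 330 with DESeq2, 90 without the 3 libraries holding Y-linked reads and 29 to 192 leaving out 1 library, with 29 without fresh wild-type replicate 2. Of these calls 125 were higher and 28 lower, against 223 and 107 with DESeq2 and 53 and 37 without the 3 libraries holding Y-linked reads. Members called there numbered 0, and 1 with DESeq2. In stimulated cells 1187 genes were called, and 514 to 1307 leaving out 1 library, lowest without stimulated wild-type replicate 3. Members called numbered 2 there, 6 without a filter, 4 with DESeq2 and 1 to 4 leaving out 1 library. The interaction called 288 genes, 443 without a filter, 555 with DESeq2, 122 without the 3 libraries holding Y-linked reads and 131 to 349 leaving out 1 library. It called 1 member, 3 without a filter, 3 with DESeq2, 2 without the 3 libraries holding Y-linked reads and 1 to 2 leaving out 1 library. Changes of sign were these. The fresh genotype effect of Ctla4 was between -0.069 and 0.16 leaving out 1 library, and that of Lag3 was 0.047 without the 3 libraries holding Y-linked reads. The stimulated effect of Entpd1 was between -0.069 and 0.79 leaving out 1 library, lowest without stimulated knockout replicate 2. The interaction of Lag3 was -0.17 without the 3 libraries holding Y-linked reads and that of Tigit 0.029 with limma-voom and 0.28 without the 3 libraries holding Y-linked reads. Leaving out 1 library, the interaction was between -0.19 and 0.40 for Lag3, between -0.19 and 0.28 for Tigit and between -0.34 and 0.53 for Entpd1. The causes were not tested. No paired analysis was possible because the replicate numbers were given in accession order and the numbers in the titles are not shared between the groups compared. Precision is limited for Cd244 and Entpd1 after stimulation and Pdcd1 before it, which rest on few counts.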
